A study of Mus musculus with 12 samples.

Results

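The steady-state mRNA landscape of wild type mouse erythroleukemia (MEL) cells was described from 3 Affymetrix arrays. The series holds 6 hybridizations, 3 of wild type cells and 3 of cells with knockdown of G9a, a histone methyltransferase, and each was summarised both by MAS5 and by GCRMA, which gives 12 deposited columns. The 3 wild type GCRMA columns were used here, the 3 wild type MAS5 columns served as a check, and the knockdown was not compared. All cells, wild type included, had been grown with 2% dimethyl sulfoxide (DMSO) for 4 days. The doxycycline treatment that switches the knockdown on (5 µg/ml) is written in the protocol of every sample, and whether wild type cells received it is not stated. The labels do not say whether replicates 1, 2 and 3 were separate cultures, so the SD given below is the spread between arrays and may be technical.

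MEL cells are erythroid precursors transformed by Friend virus that are blocked before terminal maturation. DMSO releases the block: the cells then build hemoglobin, take up iron and make heme, and leave the cell cycle. A maturing erythroblast is known for a high output of α- and β-globin, for the mitochondrial and cytosolic enzymes of heme synthesis, and for a membrane skeleton of spectrin and ankyrin that is anchored to band 3.

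Of 45101 probe sets, 64 are controls, 34945 carry 1 gene in the platform annotation, 932 carry several genes and 9160 carry none. The 1-gene probe sets name 18193 genes, and each gene was ranked by its probe set of highest mean GCRMA value over the 3 arrays, on a log2 scale. A probe set's signal depends on its probes as well as on the transcript, so a rank places a gene on the range of the array and is not a count of transcripts. A gene was called abundant at log2 12 or more on all 3 arrays, near background below log2 4 on all 3, and intermediate at log2 4 or more on all 3 without being abundant. Genes on either side of log2 4 on different arrays were called straddling.

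The genes fell into a narrow peak of dim probe sets and a broad hump of measured ones. Near background were 8989 genes (49.4%), with a median mean of log2 2.61. The intermediate class held 8430 genes (46.3%), with a median of 8.48, and 300 genes (1.65%) were straddling. The abundant class held 474 genes (2.61%), with a median of 12.94 and a top of 16.41. A mean of log2 8 or more, used below to pick single members out of silent families, was reached by 5487 genes (30.2%). The abundant genes gave 49.0% ± 0.249 (SD, n = 3) of the summed signal of all ranked genes when GCRMA values were returned to a linear scale, and 35.1% ± 1.11 in MAS5. The near-background genes gave 0.51% ± 0.025 and 1.53% ± 0.24 of it.

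**Figure D1:**
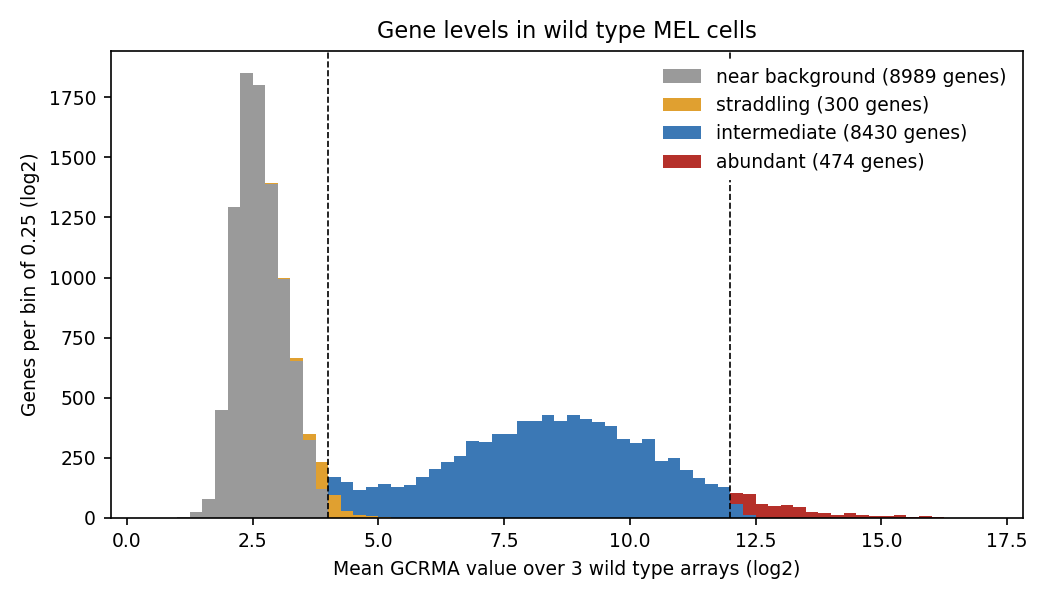
Number of ranked genes (y axis, per bin of 0.25 on the log2 scale) by mean GCRMA value over the 3 wild type arrays (x axis, log2), coloured by class, with dashed lines at log2 4 and 12. The 8989 near-background genes form the peak on the left, and the 474 abundant genes form the tail beyond log2 12.

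The class limits divide values that lie close together. Just inside the abundant class, the lowest array of Wnk1 read 12.01, of Nhp2 12.01, of Atp6v1d 12.02, of Eif3k 12.02 and of Srp14 12.02. Just outside it, the lowest array of Cdc42 read 11.9988, of Bmi1 11.99, of Arf4 11.99, of Becn1 11.99 and of Ubqln2 11.98. Just inside the near-background class were Kcnip3, Insm1, 1700015C15Rik, Zfp599 and Gm16499, whose highest array read 3.99 in Gm16499 and more in the others, up to 3.997 in Kcnip3. Just outside it were 4933439C10Rik, Sema6b, Gatd1, Gsap and Cybrd1, whose highest array read 4.002 in 4933439C10Rik and up to 4.008 in Cybrd1.

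Messenger RNAs of the translation machinery held the top of the ranking, which takes in only genes with a probe set of their own. Probe sets listed for several genes lie outside it, and some read about as high. The highest listed for Ftl1 had a mean of 15.74, for the adult α-globin genes 15.54 and for 4 β-globin genes 15.02. The highest gene was Rps29, a protein of the small ribosomal subunit, at 16.40, 16.41 and 16.43 on arrays 1 to 3. It was followed by Tpt1, the translationally controlled tumor protein, at 16.12 ± 0.02 (SD, n = 3), and by Rps20 at 16.02 ± 0.031. Of the 30 highest genes, the other ribosomal protein genes were Rplp2, Rplp0, Rps28, Rpl13a, Rps4x, Rpl37a, Rpl4, Rps7, Rps10, Rps3a1, Rpl35, Rps18, Rps24, Rpl7, Rps26, Rpl38 and Rpl19, from 15.99 down to 15.03. Translation factors among the 30 were Eef1a1 (15.59 ± 0.053), which brings aminoacyl-tRNA to the ribosome, Eef1b2 (15.06 ± 0.024), which recharges it with GTP, Eif5a (15.30 ± 0.091) and the poly(A)-binding protein gene Pabpc1 (15.40 ± 0.018).

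The rest of the 30 had other roles. Fth1, the heavy chain of the iron store ferritin, read 15.75, 15.88 and 15.81. Ctse, the aspartic protease cathepsin E, read 15.49, 15.42 and 15.39, and its other probe set read 10.78 ± 0.53. Ube2d3, a ubiquitin-conjugating enzyme, read 15.63, 15.70 and 15.16, the widest spread of the 30. The ATP synthase subunit gene Atp5h (15.38 ± 0.21) and the chaperone genes Hspa5 (15.05 ± 0.18) and Hspa8 (15.03 ± 0.16) completed them. Neighbours in this order are not separated by the arrays: in 27 of 29 adjacent pairs the ranges over the 3 arrays overlapped. The 30 genes together gave 12.4% ± 0.082 of the summed linear GCRMA signal of the ranked genes and 6.29% ± 0.43 of their MAS5 signal.

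Cytosolic ribosomal proteins had the highest median of the lists described here. Of 45 genes with a probe set of their own, 36 were abundant against 2.61% of all genes, 7 were intermediate, Rpl12 was straddling and Rps16 was near background. The family's median level was 14.74, at percentile 99.8 of the ranking. The 9 that were not abundant were each also carried on a probe set that lists further genes, and there they read higher. Rps16 read 2.03, 2.06 and 2.10 on its own probe set, while the highest probe set that lists it with other genes read 16.16. Rps6 read 7.04 against 16.19, Rps27 5.36 against 16.04, Rpl39 6.82 against 15.99 and Rpl37 10.43 against 16.02. Rpl12 (4.91 against 14.93), Rpl27a (11.24 against 15.10), Rps25 (8.24 against 14.64) and Rpl14 (8.88 against 14.44) showed the same gap. Of 15 ribosomal protein genes ranked alone and also carried on such probe sets, some went the other way: Rpl11 read 14.11 on its own and 2.78 on the shared one, Rps19 14.74 and 4.86, and Rpl37a 15.66 and 8.57. A further 26 ribosomal protein genes were carried on several-gene probe sets alone and were not ranked. Of the 932 several-gene probe sets, 16.2% were abundant, against 1.95% of 1-gene and 0.655% of unnamed probe sets, and of the 49 several-gene probe sets with a mean above 15, 41 list a ribosomal protein gene.

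Vertebrate ribosomal protein genes are known for a transcript that begins with a C in a run of pyrimidines, the 5′ terminal oligopyrimidine tract, through which their translation is regulated. RefSeq start sites (GRCm38.p6, 250 bases before to 50 after the listed start) could be matched for 14452 of the ranked genes, and 11791 had 1 listed start. Of 34 ribosomal protein genes with 1 start, 9 (26.5%) began with a C followed by at least 4 pyrimidines, against 2.47% of all 22862 windows with 1 start and 4.62% of the abundant class. The stretches from 10 bases before to 20 bases from the start on are shown for the 5 highest genes with the tract and for the 2 highest without, so that both kinds of start can be seen. Capitals mark the tract, 5′ to 3′ on the gene's strand.
Rplp2 (chr7:141447641-141447670, plus strand): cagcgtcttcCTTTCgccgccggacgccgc
Rps10 (chr17:27635225-27635254, minus strand): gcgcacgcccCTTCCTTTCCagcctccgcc
Rpl35 (chr2:39005112-39005141, minus strand): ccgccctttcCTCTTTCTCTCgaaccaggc
Rps18 (chr17:33955646-33955675, minus strand): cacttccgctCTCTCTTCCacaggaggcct
Rpl38 (chr11:114668570-114668599, plus strand): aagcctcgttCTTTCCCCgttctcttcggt
Rplp0 (chr5:115559457-115559486, plus strand): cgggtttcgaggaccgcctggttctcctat
Rps28 (chr17:33824543-33824572, minus strand): cgcgtgcggtctcgcgagagcgaaagtgag

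The marked run is 5 bases long in Rplp2, 10 in Rps10, 11 in Rpl35, 9 in Rps18 and 8 in Rpl38. The listed starts of Rplp0 and Rps28, at levels of 15.98 and 15.87, do not open with one. The 7-base string CCGGAAG, a core bound by ETS family factors, was found on either strand in 18 of the 34 ribosomal protein windows (52.9%), in 9.12% of all windows and in 14.1% of those of ranked genes. The string is a description of these windows, and no binding was measured.

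Other families of the basic cell machinery were also high, in a graded order, beside an abundant share of 2.61% over all genes. Of the chaperonin CCT subunits, which fold actin and tubulin, 8 of 9 were abundant, from Cct6a at 13.76 ± 0.067 and Cct4 at 13.66 ± 0.082 down to Tcp1 at 12.23 ± 0.17. The exception was Cct6b (2.76 ± 0.026), a paralog known from testis. Of 17 ATP synthase genes, 10 were abundant and 7 intermediate, with Atp5h, Atp5pb (14.12 ± 0.29) and Atp5b (13.99 ± 0.086) on top. Of 20 hnRNP genes, whose proteins package nascent RNA, 9 were abundant and 11 intermediate, led by Hnrnpab (14.27 ± 0.30), Hnrnpk (13.78 ± 0.30) and Hnrnpu (13.59 ± 0.046). Of 10 SR splicing factor genes, 4 were abundant, with the highest means at Srsf1 (13.56 ± 0.21), Srsf3 (13.03 ± 0.047) and Srsf2 (12.91 ± 0.13). Srsf12 (3.16) was near background.

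Of 36 genes matched by symbol as complex I subunits, 13 were abundant and 21 intermediate. The highest were Ndufa1 (14.07 ± 0.065), Ndufb11 (13.02 ± 0.18) and Ndufb9 (12.98 ± 0.17). Ndufb4 (2.07 ± 0.034) and Ndufa4l2, each on 1 probe set, were near background. Of 39 proteasome genes, 15 were abundant, 21 intermediate, 1 straddling and 2 near background. Psmb4 (14.33 ± 0.23), Psmc2 (13.85 ± 0.05) and Psmd4 (13.79 ± 0.13) led them. The 3 low ones were the immunoproteasome subunit gene Psmb9 (straddling, 4.51), the testis subunit gene Psma8 (2.75) and the thymus subunit gene Psmb11 (2.51). Of 47 genes matched by symbol as translation initiation factors, 17 were abundant, 28 intermediate and 2 near background. These 2 were Eif4e3 (2.31) and Eif4a3 (2.67), the latter read on 1 probe set only. The match also takes in regulators of these factors, such as Eif2ak1 and Eif4ebp1. Eif5a, Eif4g2 (14.28 ± 0.28) and Eif3i (13.54 ± 0.12) were the highest. These abundant counts rest on taking each gene's highest probe set. With the median over a gene's probe sets they were 5 for CCT, 3 for hnRNPs, 0 for SR factors, 7 for complex I, 7 for the proteasome and 8 for initiation factors.

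Cytochrome c oxidase, the last complex of the respiratory chain, has several subunits with tissue isoforms. Of its 17 genes, 8 were abundant (47.1%, against 2.61% of all genes), 2 intermediate, 1 straddling and 6 near background (35.3% against 49.4%). Cox6a1 read 15.12, 14.92 and 14.86, while its paralog Cox6a2, known from striated muscle, read 2.31, 2.34 and 2.35. Cox4i1 (13.57 ± 0.16) and its paralog Cox4i2 (2.25 ± 0.032), known from lung, stood in the same relation. Also near background were Cox7a1 (2.87), Cox8b (3.00), Cox7b2 (2.43) and Cox8c (1.35). Cox6b2, known as a testis isoform, was abundant at 12.64, 13.19 and 12.84, beside Cox6b1 at 13.97 ± 0.13. The straddling gene was Cox7c, a subunit of most tissues, at 3.16, 4.25 and 3.87.

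Several machineries were measured nearly whole, and their abundant shares, from 0 to 5.26%, lay around the 2.61% of all genes. On its highest probe set, each of the 76 mitochondrial ribosomal protein genes was measured above log2 4, and 4 were abundant: Mrps21 (12.59 ± 0.053), Mrpl4 (12.40 ± 0.23), Mrps14 (12.21 ± 0.19) and Mrpl51 (12.08 ± 0.053). With the median over a gene's probe sets, 7 of the 76 were near background and 1 was abundant. Their median level was 9.92. The 31 aminoacyl tRNA synthetase genes, which charge tRNAs, were all intermediate, from Aars (11.97 ± 0.21), Hars (11.68 ± 0.16) and Sars (11.45 ± 0.49) down to Mars2 (4.24). Of 31 genes matched as Mediator subunits, 29 were intermediate, with Med17 (12.12 ± 0.16) on top, and of 25 RNA polymerase genes 24 were intermediate and Polr1d (12.26 ± 0.15) was abundant.

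Large mixed families spanned the whole range. Of 336 Zfp-numbered zinc finger genes, 1 was abundant, 210 were intermediate, 9 straddling and 116 near background, a share of 34.5% against 49.4% of all genes. The abundant one was Zfp36l2 (12.99, 13.26 and 13.19), an RNA-binding protein gene and not a classical zinc finger transcription factor. Of 320 solute carrier genes, 6 were abundant (1.875%), 140 intermediate and 164 near background (51.25%), close to the 2.61% and 49.4% of all genes. Those 6 were the amino acid transporter gene Slc38a2 (13.22 ± 0.27), the lactate carrier gene Slc16a1 (12.70 ± 0.27) and the mitochondrial carrier genes Slc25a5 (13.14 ± 0.20), Slc25a39 (12.89 ± 0.087), Slc25a3 (12.84 ± 0.10) and Slc25a4 (12.72 ± 0.011). Of 45 ABC transporter genes, only the mitochondrial Abcb10 (12.68 ± 0.13) was abundant, a share of 2.22%, also close to that of all genes. It was followed by Abcg2 (11.56 ± 0.25), Abce1 (11.54 ± 0.18) and Abcb6 (11.49 ± 0.15).

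**Figure D2:**
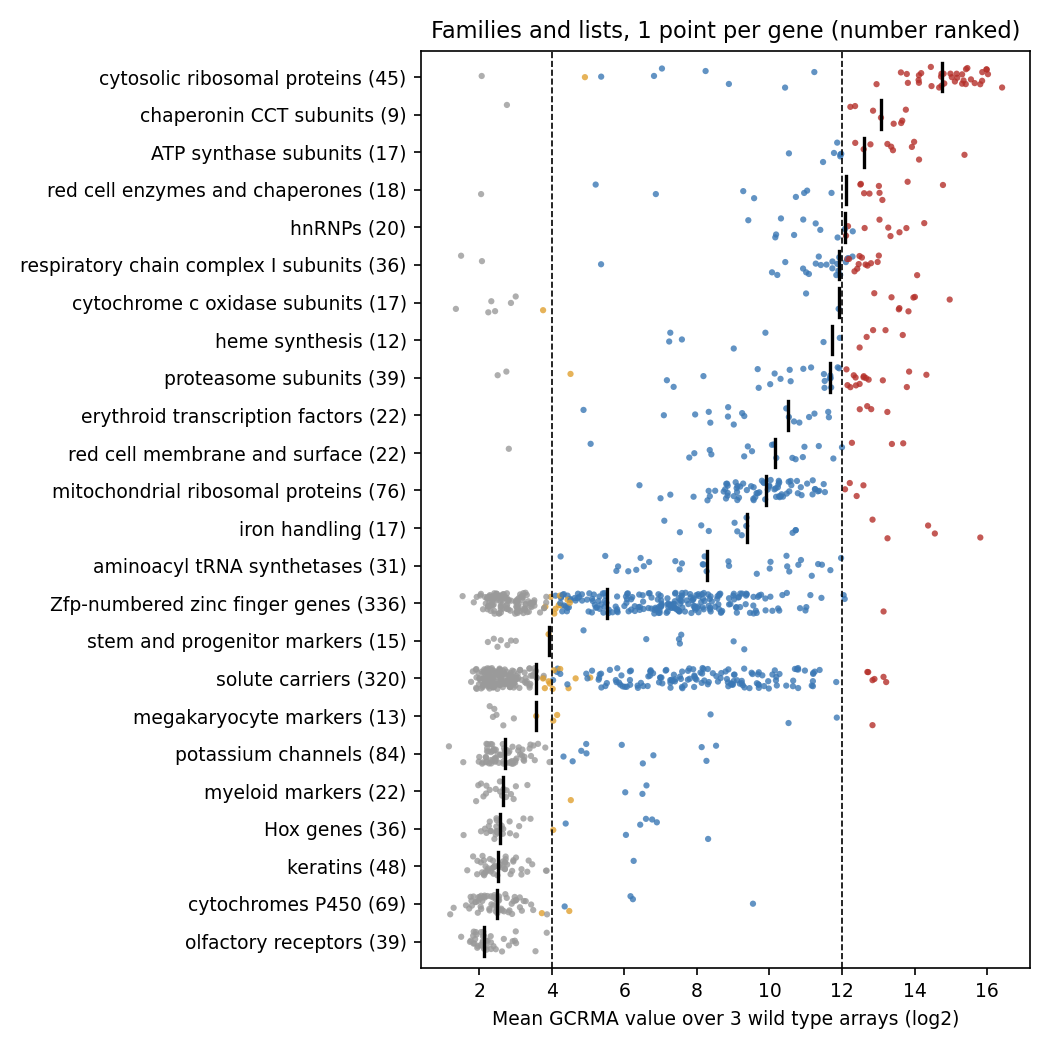
Mean GCRMA value of each ranked gene (x axis, log2) for 24 families and lists (y axis, number of genes in parentheses), with the list median as a black bar, dashed lines at log2 4 and 12, and the class colours of the plot of gene levels (grey near background, orange straddling, blue intermediate, red abundant). The cytosolic ribosomal proteins have the highest median (14.74), and all 39 olfactory receptors lie below log2 4, where no order is read.

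Heme, iron and erythroid transcription factor genes were all measured above log2 4. Of 12 heme synthesis genes, 5 were abundant (2 with the median over a gene's probe sets) and 7 intermediate, and none was near background against 49.4% of all genes. Their median was 11.72, at percentile 96.2. Alas2, the erythroid enzyme of the first and rate-limiting step, read 12.98, 13.40 and 13.22, against 7.59 ± 0.21 for Alas1, the form of most other tissues. The other abundant members were Alad (13.68 ± 0.20) and Urod (12.86 ± 0.11), enzymes of the cytosolic steps, Fech (12.49 ± 0.13), which inserts the iron, and Abcb10 (12.68 ± 0.13), a transporter of the inner mitochondrial membrane.

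The heme genes without an abundant call ranged widely. Tmem14c, which imports protoporphyrinogen into the mitochondrial matrix, read 12.30, 11.90 and 11.61, on both sides of the upper limit. Abcb6 (11.49 ± 0.15), Cpox (9.89 ± 0.18) and Ppox (9.02 ± 0.44) followed. The lowest were the mitochondrial glycine carrier gene Slc25a38 (7.27 ± 0.40) and Uros (7.24 ± 0.083).

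All 17 iron handling genes were measured above log2 4, 5 were abundant (29.4%, against 2.61% of all genes), and the median was 9.37. The transferrin receptor gene Tfrc, which brings iron into the cell, read 14.48, 14.58 and 14.62. Its relative Tfr2 read 9.11 ± 0.33. Besides Fth1, the abundant members were Glrx5 (14.37 ± 0.20), which acts in mitochondrial iron-sulfur cluster assembly, the iron chaperone gene Pcbp1 (13.26 ± 0.045) and Ncoa4 (12.84 ± 0.076), the receptor that delivers ferritin to autophagy. The ferritin light chain gene Ftl1 was read only on probe sets that list further genes. The highest, shared with a pseudogene, read 15.63, 15.80 and 15.79, another shared with it had a mean of 14.53, and one that lists 5 genes had a mean of 9.88. The lowest were the divalent metal transporter gene Slc11a2 (7.53 ± 0.12) and the ferrireductase gene Steap3 (7.85, 7.14 and 6.32).

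All 22 erythroid transcription factor genes were measured above log2 4, and their median of 10.50 lies at percentile 90.8. Abundant were 4 of them (18.2%), against 2.61% of all genes. Gata1, the factor that drives most erythroid genes, read 13.40, 13.26 and 13.09 on its 1 probe set. Ldb1 (12.81 ± 0.041), which bridges distant enhancers and promoters, Zfpm1 (12.70 ± 0.17), the GATA1 cofactor FOG1, and Klf1 (12.49 ± 0.33), the erythroid Krüppel-like factor, were also abundant. Their partners and relatives were intermediate: the repressor gene Gfi1b read 11.64 ± 0.27, Tal1 11.62 ± 0.22, Nfe2 11.24 ± 0.24 and Lmo2 9.31 ± 0.31. Bcl11a, a repressor of embryonic and fetal globin genes, read 9.39, 8.59 and 8.60, and Zbtb7a, another, read 7.09 ± 0.24. The lowest was Myb, a factor of proliferating progenitors, at 5.64, 4.65 and 4.33.

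Genes of the red cell membrane and surface ranged from the abundant class to background. Of 22, 3 were abundant (13.6%), 18 intermediate and 1 near background, with a median of 10.16. Over all genes, 2.61% were abundant and 49.4% near background. The abundant ones were Cd24a (13.37, 14.30 and 13.39), the "do not eat me" signal gene Cd47 (13.38 ± 0.12) and the Rh-associated glycoprotein gene Rhag (12.11, 12.64 and 12.08). The glycophorin C gene Gypc (11.76 ± 0.15) came below them, after Ermap, which lay on both sides of the upper limit. The skeleton genes followed, with Sptb (β-spectrin) at 10.72 ± 0.41, Tmod1 (tropomodulin) at 10.63 ± 0.29, Ank1 (ankyrin) at 9.52 ± 0.31 and Epb42 (protein 4.2) at 8.40 ± 0.23. The anion exchanger gene Slc4a1, whose product is band 3, read 7.88, 8.02 and 7.88, at percentile 69.1. Xk read 5.07 ± 0.33, and Ackr1, the Duffy antigen gene, was near background at 2.78, 2.81 and 2.85.

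Among 18 genes for red cell enzymes and related proteins, 9 were abundant (4 with the median over a gene's probe sets), 8 intermediate and 1 near background. The shares over all genes were 2.61%, 46.3% and 49.4%. Of the antioxidant genes, Prdx2 read 14.81, 14.88 and 14.66, Sod1 13.81 ± 0.075, Txn1 13.02 ± 0.21 and Gclm 12.52 ± 0.34, while the catalase gene was intermediate and below log2 12 on every array. The glutathione peroxidase gene Gpx1 read 13.11 ± 0.68, with 13.84 on array 1, the highest of the 3. Car2, carbonic anhydrase of the red cell, read 12.76 ± 0.13, while Car1, its partner in mature cells, read 7.96, 6.48 and 6.16. The erythropoietin receptor gene Epor (12.51 ± 0.21), the nucleotidase gene Nt5c3 (13.03 ± 0.065) and Blvrb (12.61 ± 0.40) were abundant too. Pklr, the pyruvate kinase of liver and red cell, read 5.99, 4.79 and 4.84, and the lipoxygenase gene Alox15, which acts late in reticulocyte maturation, was near background at 2.05 ± 0.036.

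Genes that act in mitochondrial clearance and nuclear condensation were intermediate in 10 of 11 cases, against 46.3% of all genes. Rac1 (11.79 ± 0.26), Rac2 (11.29 ± 0.28), Mxi1 (11.20 ± 0.042), Hdac2 (11.17 ± 0.095), Xpo7 (10.28 ± 0.19) and the ubiquitin ligase gene Ube2o (10.27 ± 0.094) were the highest, and Diaph2 (3.21 ± 0.056) was near background. Of 3 probe sets listed for the mitophagy receptor gene Bnip3l and a pseudogene, the highest read 12.26, 12.57 and 12.54, and the others had means of 11.30 and 10.63. In a bulk sample, fewer cells of a type and less RNA per cell cannot be told apart, so these levels do not separate a few mature cells from many less mature ones.

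**Figure D3:**
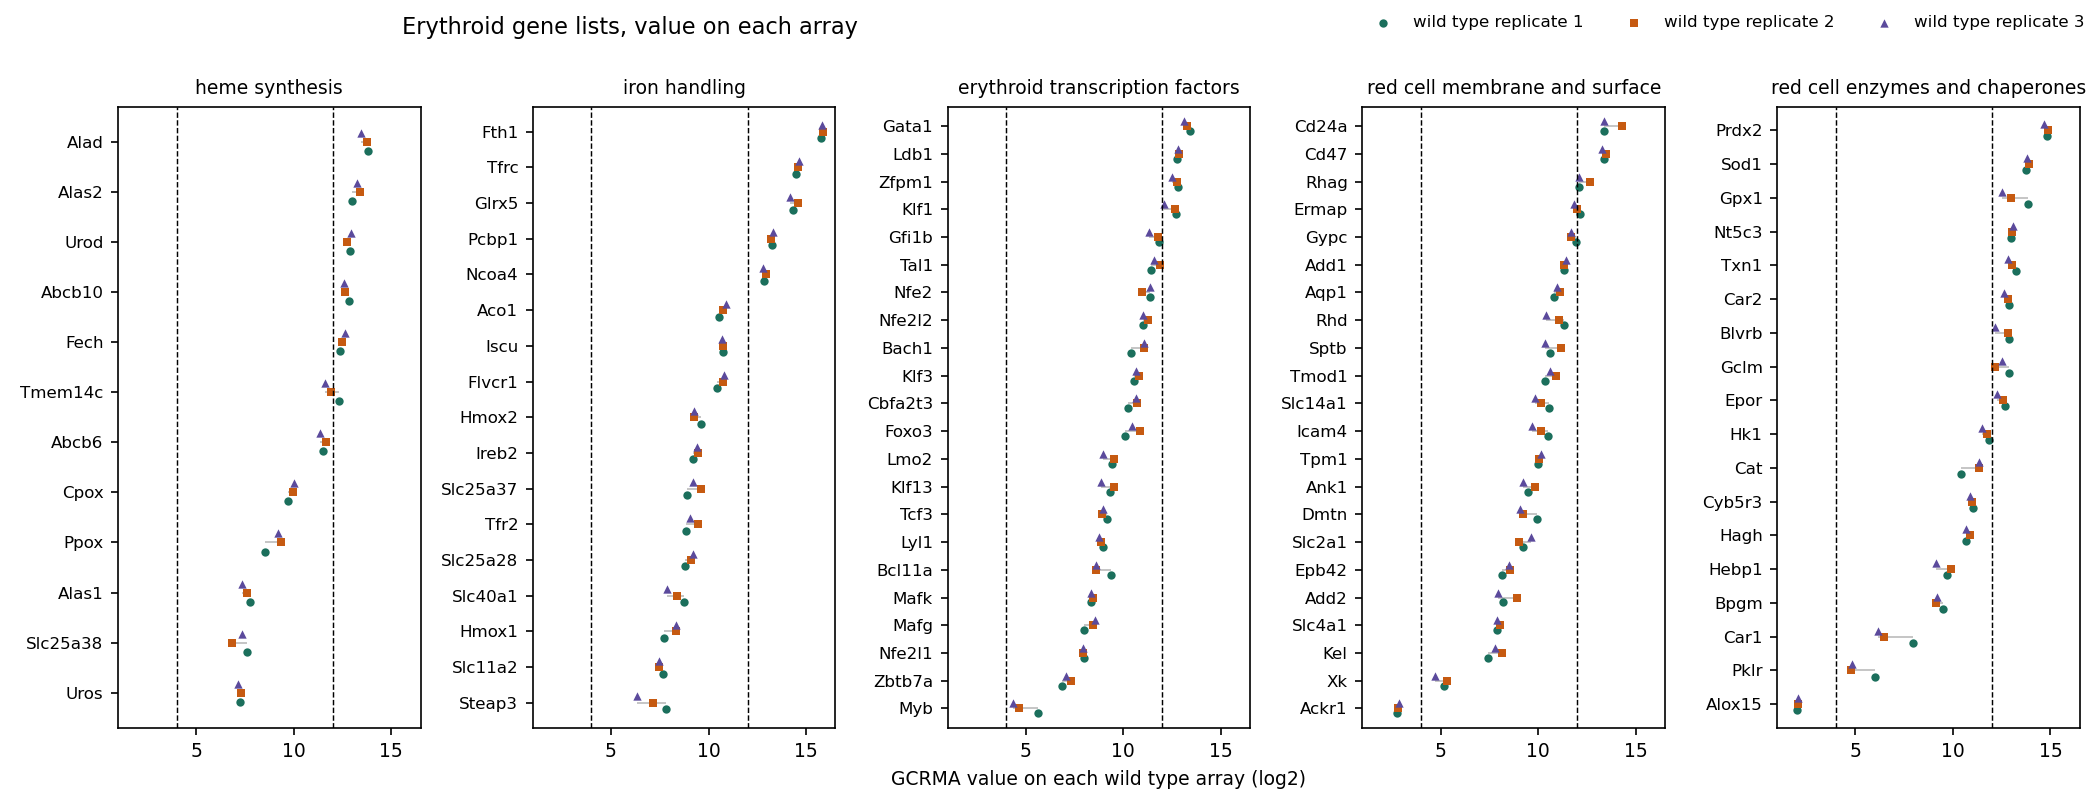
GCRMA value (x axis, log2) of every ranked member of 5 erythroid lists on each of the 3 wild type arrays (a marker per replicate, grey line for their range), with dashed lines at log2 4 and 12. Heme, iron and transcription factor genes all lie above log2 4, and Ackr1 and Alox15 are the 2 members that do not.

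Globin mRNA could be read from probe sets shared between near-identical genes and hardly from the rank. The probe set listed for both adult α-globin genes, Hba-a2 and Hba-a1, with the highest mean read 15.49, 15.56 and 15.56, and the others listed for the pair had lower means, down to 14.10. The probe set listed for 4 β-globin genes (Hbb-bt, Hbb-bs, Hbb-b2 and Hbb-b1) read 15.02 ± 0.016. On probe sets with a single gene, Hbb-b2 read 9.58, 10.92 and 10.68, Hba-a2 7.22, 7.76 and 7.15, and Hba-a1 2.43, 2.46 and 2.49. The shared probe sets exceeded these readings on every array. Set among the ranked genes, the highest α-globin probe set would lie at percentile 99.9 and the β-globin one at 99.8. The embryonic globin genes Hbb-bh1 (3.03 ± 0.012), Hbb-y (2.98 ± 0.079) and Hba-x (2.87 ± 0.026) were near background.

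The labelled cell type was checked against its markers and those of other lineages. Of 9 erythroid markers with a rank, 6 were abundant (Tfrc, Gata1, Alas2, Epor, Klf1 and Rhag), against 2.61% of all genes. Epb42 and Slc4a1 were intermediate, and Hba-a1 was near background on its own probe set, as given above. Of 15 stem and progenitor markers, 7 were near background (46.7%), close to the 49.4% of all genes, 1 was straddling and 7 were intermediate. Kit, the stem cell factor receptor gene that early erythroid precursors carry, read 2.98, 2.99 and 3.05 on the higher of its 2 probe sets, and Cd34 (2.40) and Flt3 (2.24) were near background as well. Above log2 8 in that list were Lmo2 (9.31) and Myc (8.73, 9.05 and 9.26), and Gata2 was intermediate.

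Of 22 myeloid markers, 18 were near background (81.8%, against 49.4% of all genes), among them Mpo (1.97), Elane (2.18), Lyz2 (2.67), Itgam (2.45) and Cd14 (1.91). The exceptions were Spi1 (6.77, 6.17 and 6.88), encoding PU.1, the factor that Friend virus insertion activates in many erythroleukemia lines, Csf1r (6.32, 6.36 and 6.81) and Cebpa (6.02 ± 0.55). Prtn3 was straddling at 4.52. Fli1, the target of Friend virus insertion in other lines, read 10.45, 10.37 and 10.76. Megakaryocyte markers, a lineage that shares its precursor with red cells, were mixed. The 1 abundant member of the list was F2r (12.65, 12.54 and 13.34), a thrombin receptor gene whose use as a marker in mouse was not checked. Itga2b (11.86 ± 0.22), Fli1 and Pf4 (8.38 ± 0.47) were above log2 8. The listed genes Gp9 (3.57), Gp1bb (4.04) and Gp5 (4.15) were straddling, and Vwf (2.95), Gp6 (2.47), Ppbp (2.29) and Tubb1 (2.66) were near background. In all, 6 of 13 were near background (46.2%), against 49.4% of all genes.

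Markers of unrelated cells were near background almost throughout. All 10 T and NK cell markers, all 10 mast cell and basophil markers and all 8 hepatocyte markers were near background, as were 8 of 9 B cell, 8 of 9 endothelial, 7 of 8 epithelial, 9 of 11 fibroblast, 8 of 9 neuron, 8 of 10 muscle and 12 of 13 germline and pluripotency markers. None of these lists had a member with a mean of log2 8 or more. Over all genes, 49.4% were near background and 30.2% had such a mean. The highest of the listed markers were Vim at 7.52, 6.88 and 6.80 and Tubb3 at 6.89 ± 0.49.

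Whole families of tissue-restricted genes lay below log2 4. All 39 olfactory receptor, all 38 keratin-associated protein and all 35 protocadherin genes were near background, as were 47 of 48 keratin, 37 of 38 vomeronasal and taste receptor, 22 of 23 defensin, 38 of 42 collagen, 63 of 69 cytochrome P450, 73 of 84 potassium channel and 28 of 36 Hox genes, against 49.4% of all genes. Single members stood above them. Cyp20a1, a P450 gene with no established substrate, read 9.45, 9.64 and 9.55. Hoxc10 read 8.26, 8.39 and 8.28, the only Hox gene of the 36 with a mean above log2 8, and Krt42 (6.26 ± 0.21) was the only keratin gene above log2 4.

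Of the potassium channel genes, Kcnk5 (8.53), Kcnab2 (8.26) and Kcnn4 (8.22, 8.58 and 7.59) had means above log2 8. Kcnn4 encodes the calcium-activated Gardos channel of the red cell. Of 12 myosin heavy chain genes, 10 were near background and the nonmuscle genes Myh9 (11.26, 11.69 and 11.36) and Myh10 (11.24 ± 0.20) were not. Of 40 serpin genes, 34 were near background and Serpinb6a, an intracellular protease inhibitor, read 11.91 ± 0.20. Of 37 genes whose symbols match GABA and glutamate receptors, 35 were near background. Grina, at 12.20, matches that pattern by symbol but encodes no receptor channel subunit.

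Promoters differed between the classes, as read from the RefSeq windows of the 11791 ranked genes with 1 start. The median ratio of observed to expected CpG was 0.877 in the 325 abundant genes, 0.811 in 5527 intermediate, 0.621 in 199 straddling and 0.384 in 5740 near-background genes, against 0.679 over the 11791 ranked genes and 0.374 over all 22862 windows. The string TATAAA was found on either strand in 7.38% of abundant, 6.10% of intermediate and 14.3% of near-background windows, in 10.2% of those of ranked genes and in 14.8% of all windows. CCGGAAG was found in 24.0%, 22.9% and 5.26% of these classes, and still in 21.7% of the abundant genes once the ribosomal proteins were left out. The G+C-rich string GCCCCGCCC was found in 30.5%, 25.5% and 11.2%, in 18.6% of those of ranked genes and in 11.2% of all windows. These strings differ in base composition as the classes do, and no test was made of them.

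The 250 bases before the start of Tpt1, the highest gene with 1 listed start, and of Alb, a hepatocyte gene at 3.02 that is near background, show the contrast in CpG, which is in capitals. The count of CpG is 33 in Tpt1 and 2 in Alb, each in 250 bases.
Tpt1 (chr14:75845006-75845255, plus strand): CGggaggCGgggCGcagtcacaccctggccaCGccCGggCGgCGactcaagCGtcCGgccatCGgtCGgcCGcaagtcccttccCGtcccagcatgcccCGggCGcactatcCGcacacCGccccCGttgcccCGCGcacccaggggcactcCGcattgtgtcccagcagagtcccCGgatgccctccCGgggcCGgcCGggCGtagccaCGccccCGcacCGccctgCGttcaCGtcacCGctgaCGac
Alb (chr5:90460620-90460869, plus strand): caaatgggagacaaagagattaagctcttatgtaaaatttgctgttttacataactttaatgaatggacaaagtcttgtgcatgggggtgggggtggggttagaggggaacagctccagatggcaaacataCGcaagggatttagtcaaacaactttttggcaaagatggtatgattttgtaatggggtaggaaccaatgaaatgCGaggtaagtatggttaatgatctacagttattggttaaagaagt

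GATAA, a string bound by GATA factors, was found on either strand in 15.4% of abundant and 23.3% of near-background windows, in 19.1% of those of ranked genes and in 26.3% of all windows. By list, 7 of 15 windows of red cell membrane genes held it (46.7%), 3 of 8 of heme synthesis genes, 3 of 16 of erythroid transcription factor genes 1 of 10 of red cell enzyme genes and 0 of 6 of iron handling genes. For comparison, 12 of 28 olfactory receptor windows held it (42.9%), and so did 11 of 34 ribosomal protein windows (32.4%). The upstream 250 bases of Alas2, Klf1 and Epor are shown as 3 abundant erythroid genes that hold it, picked for that. Capitals mark the match, which in each lies on the opposite strand and so reads TTATC.
Alas2 (chrX:150547167-150547416, plus strand): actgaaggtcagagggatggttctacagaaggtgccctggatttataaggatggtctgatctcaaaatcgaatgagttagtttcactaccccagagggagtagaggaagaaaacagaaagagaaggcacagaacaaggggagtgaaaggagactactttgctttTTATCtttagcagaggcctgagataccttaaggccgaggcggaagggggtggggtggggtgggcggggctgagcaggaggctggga
Klf1 (chr8:84901732-84901981, plus strand): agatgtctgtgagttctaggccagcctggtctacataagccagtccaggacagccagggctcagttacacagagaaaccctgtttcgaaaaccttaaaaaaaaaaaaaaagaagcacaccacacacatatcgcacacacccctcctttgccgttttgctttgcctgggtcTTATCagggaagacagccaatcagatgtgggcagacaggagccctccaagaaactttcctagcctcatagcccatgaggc
Epor (chr9:21963577-21963826, minus strand): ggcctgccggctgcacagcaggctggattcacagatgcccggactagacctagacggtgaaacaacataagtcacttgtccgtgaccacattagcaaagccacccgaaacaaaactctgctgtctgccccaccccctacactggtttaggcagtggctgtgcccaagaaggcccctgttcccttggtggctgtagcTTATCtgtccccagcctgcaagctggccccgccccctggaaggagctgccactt
The match begins 86 bases before the listed start in Alas2, 80 in Klf1 and 54 in Epor. The levels of these genes (13.20, 12.49 and 12.51) were not set against the string by any test.

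The MAS5 summary gave a similar ranking of measured genes and an unrelated one of dim genes. Across all 18193 genes the Spearman correlation between mean GCRMA and mean log2(MAS5 + 1) was 0.867, across the 8904 genes at log2 4 or more on all arrays 0.965, and across the near-background genes −0.0024. These are correlations across genes of the same arrays, and genes are not independent replicates. Of the 474 abundant genes, 399 (84.2%) were among the 474 highest in MAS5, and of the 8989 near-background genes, 8616 (95.9%) were among the 8989 lowest. All 30 of the highest genes were in the MAS5 top 100. The abundant genes ranked lowest by MAS5 were Eef1d (percentile 93.5 in MAS5), Hadhb (94.1), Ndufb5 (94.8), Pam16 (94.8), Ddx39b and Arl1 (95.2).

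The spread of near-background genes depended on the summary. Their median SD over the arrays was 0.043 in GCRMA and 0.849 in MAS5, whereas the abundant genes had 0.123 and 0.121 and the intermediate genes 0.183 and 0.190. The small GCRMA SD below log2 4 thus has no counterpart in MAS5, and no order of genes is read there. The widest shifts between summaries were sought only among genes at log2 4 or more on all arrays, so near-background genes could not appear. The widest falls were in genes with GCRMA means of log2 4.16 to 4.86. In percentile, 1700063D05Rik moved from 51.3 in GCRMA to 1.18 in MAS5, BC147527 from 50.9 to 1.08 and Gm6600 from 51.3 to 8.20. Ccr9 moved from 51.4 to 11.9, Klra7 from 52.9 to 15.4 and Cmah from 51.9 to 14.6. In the other direction Tcl1b3 moved from 52.8 to 79.3, Plod3 from 58.8 to 79.8, Vars from 57.0 to 76.2, Psmg4 from 61.3 to 80.1, Triobp from 62.0 to 80.8 and Setd1a from 55.8 to 74.1.

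**Figure D4:**
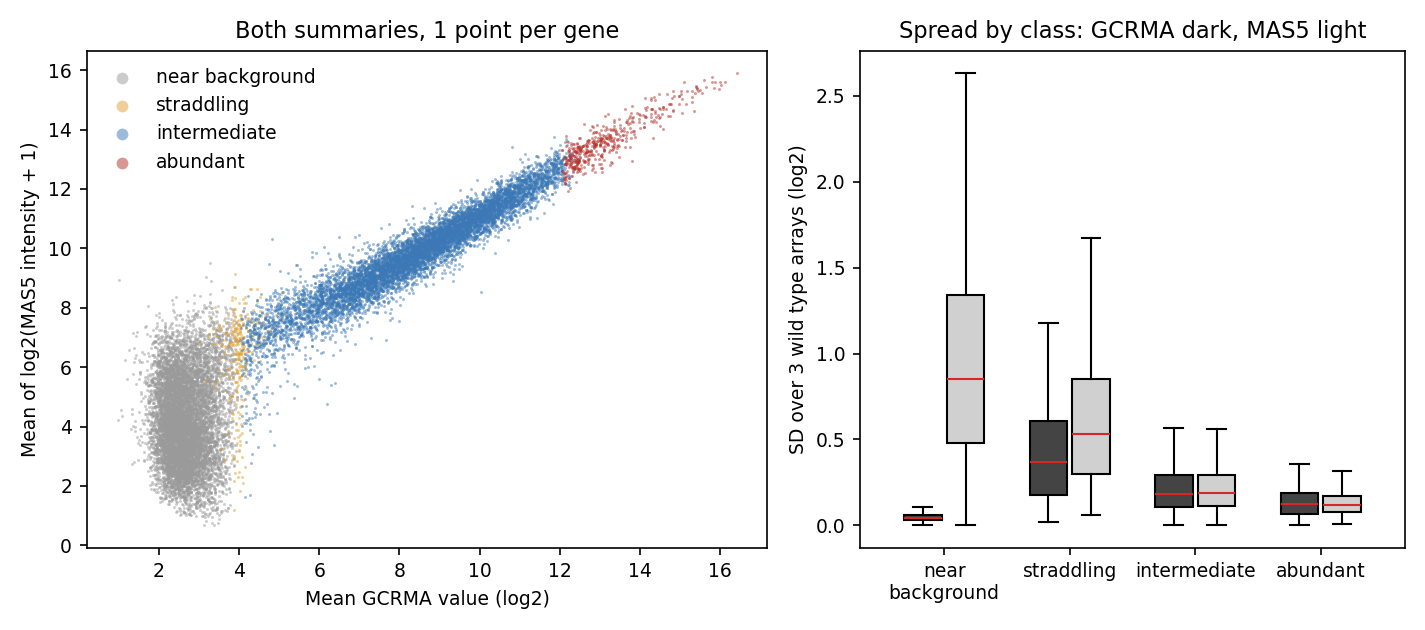
Left, mean of log2(MAS5 intensity + 1) (y axis) against mean GCRMA value (x axis, log2), 1 point per gene, coloured by class. Right, SD over the 3 wild type arrays (y axis, log2) by class, GCRMA in dark and MAS5 in light boxes (box, quartiles; red line, median; whiskers by the usual box plot rule, points beyond not drawn). Points above log2 4 follow a line, and the near-background genes are spread over MAS5 values with a median SD of 0.849 against 0.043 in GCRMA.

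A gene's level also depended on which of its probe sets was read. Of 3782 genes with a mean of log2 8 or more and several probe sets, 1937 (51.2%) had their lowest below log2 4, and 732 (19.4%) had even their second highest there. The widest gap was in Tpt1 (16.12 and 1.40), followed by Rps20 (16.02 and 1.85, with a second probe set at 15.96), Rps4x (15.81 and 2.13), Rps3 (14.80 and 1.55), Rps24 (15.31 and 2.08), Hsp90aa1 (14.65 and 1.80), Rpl35 (15.35 and 2.59), Rps18 (15.31 and 2.57), Rps10 (15.42 and 2.85) and Mbnl1 (14.41 and 2.01). Mycn, a MYC family transcription factor gene, is ranked among the highest by 1 probe set alone: it read 14.78, 14.85 and 14.90 there, and means of 3.79 and 2.80 on its other probe sets. For such genes the rank rests on a single probe set.

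Replicates were close for most measured genes, and array 1 stood somewhat apart. The Pearson correlation over all ranked genes was 0.995 between arrays 1 and 2, 0.995 between 1 and 3, and 0.998 between 2 and 3, again across genes. Of the 8904 measured genes, 3.19% differed by more than 1 on the log2 scale between arrays 1 and 2, 3.86% between 1 and 3 and 0.842% between 2 and 3. Their median SD was 0.179 with all arrays and 0.104 without array 1. Array 1 was the farthest of the 3 from the others in 4392 measured genes (49.3%), against 2196 for array 2 and 2316 for array 3, and in 345 of the 494 genes whose range exceeded 1.

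Of the 345 genes just counted, array 1 was highest in 216 and lowest in 129. Among the 12 genes of largest SD it was lowest in 9. The histone H3.3 gene H3f3b read 4.67, 10.04 and 9.06, the largest SD of the measured genes. Neat1, the RNA that builds nuclear paraspeckles, read 9.23, 11.56 and 12.55, and the microRNA host transcript Mir142 read 5.84, 8.13 and 9.10. Tspoap1 (4.77, 8.45 and 9.25), G530011O06Rik (5.20, 8.01 and 8.54), Cdhr4 (4.33, 7.52 and 6.96), H3c7 (4.39, 7.20 and 7.40), D930016D06Rik (5.10, 7.36 and 7.74) and E330020D12Rik (7.95, 9.84 and 10.56) shared this shape. Kcne3 (6.48, 4.08 and 4.29) and Tcf19 (8.05, 5.43 and 6.57) were instead highest on array 1, and 9530057J20Rik (6.11, 5.62 and 8.66) was highest on array 3.

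By list, all 6 measured nuclear noncoding RNAs were lower on array 1 than the mean of arrays 2 and 3, by a median of −2.10 on the log2 scale, with Malat1 at 10.44, 12.70 and 12.35. All 13 mitosis genes were higher on array 1, by a median of 1.27, against 0.09 over all measured genes. Plk1, a kinase of mitotic entry, read 9.29, 7.77 and 6.96, and Bub1b, a spindle checkpoint gene, read 7.99, 6.65 and 5.51. All 6 MCM helicase genes, which license replication origins, were higher on array 1 too, by a median of 0.91, with Mcm5 at 11.37, 10.28 and 10.32. The noncoding RNA and mitosis lists were drawn up after the values had been seen, and what sets array 1 apart was not tested. Both globin genes above log2 4 on their own probe sets were lower on array 1, by a median of −0.73. In the other erythroid lists the median difference was 0.05 for heme synthesis, 0.07 for erythroid transcription factors, −0.10 for iron handling and −0.07 for membrane genes, and 0.23 for red cell enzymes.

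**Figure D5:**
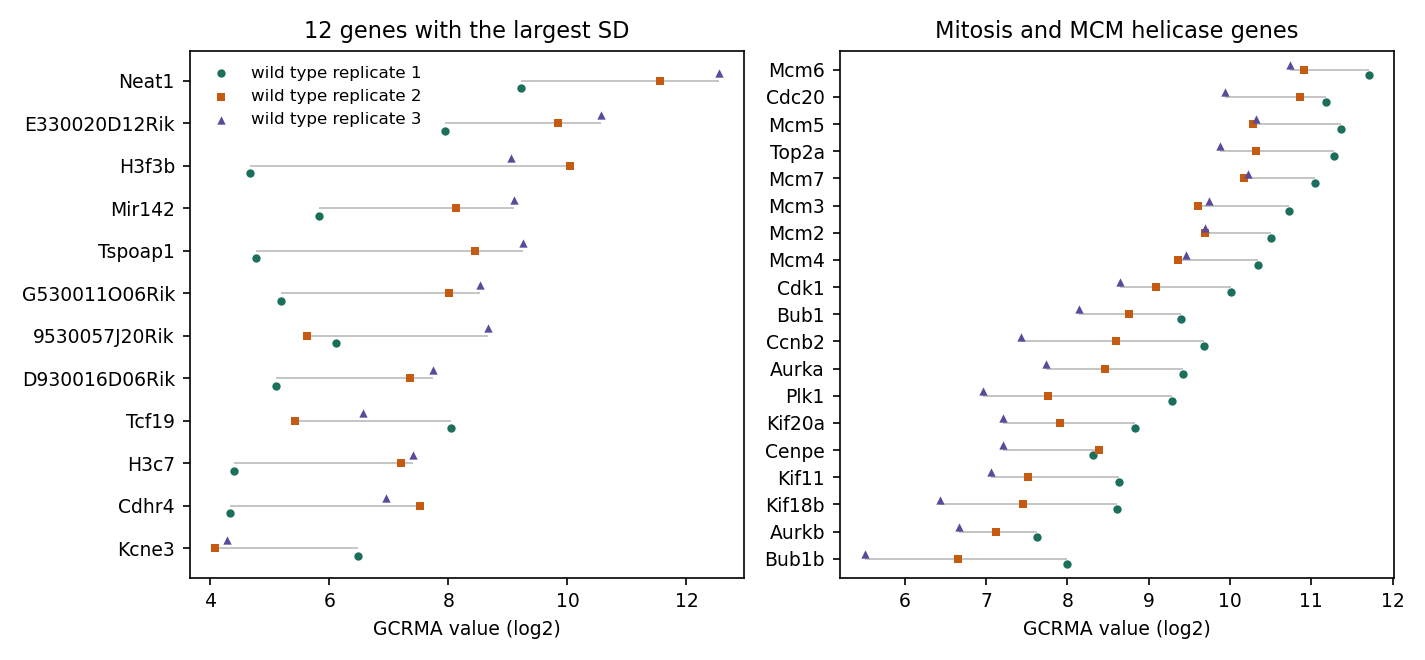
GCRMA value on each wild type array (x axis, log2; a marker per replicate, grey line for their range) for the 12 genes of largest SD among those at log2 4 or more on all arrays (left) and for 13 mitosis and 6 MCM helicase genes (right). Array 1 is lowest in 9 of the 12 variable genes; it is highest in 18 of the 19 genes on the right, Cenpe being the exception.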

How the data were processed

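RNA of MEL cells was hybridized to Affymetrix mouse arrays and, per the labels, each array was summarised by the authors with both MAS5 and GCRMA; versions, settings and the scanner data were not given in the sources used here. The deposited GCRMA columns hold log2 values per probe set. MAS5 values were deposited as linear intensity and taken here as log2(intensity + 1). Groups came from the labels. Probe sets were named through GEO's annotation of the platform, which can be old, and start sites came from a RefSeq table (GRCm38.p6), matched by symbol. No value was normalized further.

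Each gene was represented by its 1-gene probe set of highest mean over the 3 wild type arrays, and classes used log2 4 and 12. No test was run, since 1 group was described. The number of arrays limits the precision. The largest SDs and shifts in rank were sought among genes at log2 4 or more on all arrays. Genes named were the 30 highest, list members by class, members of quiet families at log2 8 or more, the 12 largest SDs, the 10 widest probe set gaps, the 6 widest shifts in rank each way and 5 genes on each side of a limit. The members and 67 lists were chosen with earlier results of these data known, and 5 of the lists were added after the values were seen. Promoter strings were searched on both strands, apart from the placed TATAA, which was searched on the gene's strand. The ranking was checked on simulated data (Python 3.11.15, pandas 2.3.3, scipy 1.17.1). Alternatives changed the probe set rule, the limits, the normalization and the arrays.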

Additional observations from a re-analysis of the deposited data

How the results depend on the processing

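The near-background and intermediate counts stayed within 1.5 times their values under every alternative tried: near background 8275 to 9874 against 8989, intermediate 7193 to 8966 against 8430. The abundant count of 474 depended most on the probe set rule and the limit. It was 222 with the median over a gene's probe sets, 233 without probe sets ending in _s_at, _x_at or _a_at, 1042 with a limit of log2 11 and 190 with a limit of log2 13. The 222 and the 233 genes were all among the 474, which is almost bound to follow from taking each gene's highest probe set. It was 542 when the mean of the arrays decided and 474 after quantile normalization. Leaving out 1 array gave 489 to 508 abundant, 9008 to 9071 near-background and 8439 to 8457 intermediate genes. The number of lists with a median above percentile 50 was 34, and 34 to 35 without 1 array, an alternative added after the values were seen; the list that crossed was the stem and progenitor markers (percentile 49.8 with all arrays, 50.7 without array 2). The Spearman correlation with MAS5 was 0.864 to 0.870 without 1 array. The median SD of measured genes was 0.104 to 0.167 without 1 array, lowest without array 1, and 0.184 in MAS5. Below log2 4 the summaries shared no order of genes, so signal over background limits what can be read there. No paired analysis was possible because 1 group was described and no comparison between groups was made.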

Other observations

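The sex-linked genes gave a mixed pattern. Eif2s3y, a Y-linked translation factor gene, read 11.31, 11.45 and 11.26, and Uty, also Y-linked, read 8.78, 9.27 and 8.93. Kdm5d, another Y-linked gene, was near background on all 3 of its probe sets, from a mean of 1.91 to 2.63. Xist, the RNA that coats an inactive X chromosome, read 8.56, 10.78 and 10.60, and was again lowest on array 1. These values come from a cell line and were not compared with another.

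Histone genes of the clusters, whose main transcripts lack a poly(A) tail, were uneven. Of 12 with a probe set of their own, 2 were abundant, H1f2 (14.16, 14.71 and 14.63) and H2ac19 (13.12 ± 0.06, SD, n = 3), 5 were intermediate and 5 near background. Over all genes, 2.61% were abundant and 49.4% near background. The probe set listed for 10 H2A genes read 13.64, 12.84 and 12.69, and the one listed for H2ac19 and H2ac18 read 9.30, 10.24 and 10.39. The other probe sets of H1f2 had means of 13.98 and 3.59.

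Of the tubulin genes, Tuba4a (14.37 ± 0.11) and Tubb4b (12.69 ± 0.23) were abundant, while Tubb1, the β-tubulin of platelets, was near background at 2.66.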
